A study of Rattus norvegicus with 24 samples.

Results

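The keratin family was taken as every gene of the normalized count table whose symbol is Krt followed by a number and at most 1 letter, which excludes the keratin-associated Krtap genes. It held 47 of the 32883 genes, each with 1 row, of which 26 code for type I and 21 for type II keratins. The samples were urethras of 12-week-old female virgin Sprague-Dawley rats, and every group had undergone simulated vaginal delivery (SVD), a pudendal nerve crush with vaginal distension. The 6 groups of 4 samples were saline, MABs-allo and MABs-allo-VEGF, each collected at 3d and 7d. MABs-allo are mesoangioblasts, vessel-derived progenitor cells grown from the hind limb muscle of another rat, and saline or cells were injected into the aorta after the injury. Per the study's methods, a lentiviral vector for eGFP and luciferase under the CMV promoter was used to track the cells. For MABs-allo-VEGF a vector for VEGF and a truncated CD34 under the SFFV promoter was used, and the methods leave unstated whether these cells also carried the first. The genotype label is VEGF OE for the MABs-allo-VEGF samples and WT for all others. No uninjured urethra was among the samples analysed here. MABs-allo-VEGF replicates 6 and 7 at 7d are labelled as recovered.

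Keratins are the intermediate filament proteins of epithelial cells. A filament is built from pairs of 1 acidic type I and 1 basic type II chain, so keratins are made in partner sets that mark the kind of epithelium and its layer. Krt5 with Krt14 or Krt15 is typical of the basal layer of stratified epithelia, Krt8 with Krt18 of simple epithelia, Krt4 with Krt13 of the upper layers of internal mucosa and Krt1 with Krt10 of the upper layers of skin. Krt16 and Krt17 appear in wounded and rapidly growing stratified epithelium. The urethral lining passes from urothelium, where Krt7, Krt8, Krt18, Krt19 and Krt20 are known, to stratified squamous epithelium towards its opening.

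Values are normalized gene counts from 3′ libraries, that is reads per gene divided by a size factor of the sample and not by gene length. Between 2170695 and 10166052 reads were counted per sample, at most 5249467 at 3d and at least 5244129 at 7d, and 1 read was worth between 1.67 and 9.23 normalized counts. Keratin genes took 616 to 75814 of these reads. Of the 8 lists of cell type markers, the 5 genes of the epithelium list (Cdh1, Epcam, Cldn4, Cldn7 and Esrp1) were above 0 in every sample. A saline 3d sample (replicate 8) and a sample of MABs-allo-VEGF at 3d (replicate 2) stood apart from the other 22. The mean log2 level of the 5 epithelium markers was 8.66 in the first and 7.18 in the second, against 10.6 to 12.5 in the others. They also differed in other tissue. In saline 3d the summed smooth muscle markers were 20664 in replicate 8 and 92336 to 161410 in the other 3, and the summed adipocyte markers were 4582 against 59.8 to 145. In MABs-allo-VEGF 3d the summed smooth muscle markers were 50640 in replicate 2 and 93738 to 117313 in the other 3. Counts of calls, SDs and ratios below are also given without these 2 samples where that changes them. In bulk tissue, fewer epithelial cells and less keratin RNA per cell cannot be told apart.

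Of the 47 keratins, 12 were at 0 in every sample and 35 had at least 1 read. The 26 with a mean of at least 2 normalized counts were tested, and the other 9 had at most 3 reads in any sample. Counts of tested keratins below refer to these 26 and not to the whole family. Krt6a and Krt6b, wound-induced type II partners of Krt16 and Krt17, were not analysed here. All 47 genes were found in the RefSeq gene table, which placed 25 of the 26 type I genes on chromosome 10 and the 21 type II genes on chromosome 7. The exception was Krt18, which lies on chromosome 7 beside its type II partner Krt8.

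A RefSeq entry of the sequence upstream of the start (rat assembly GRCr8) was found for 34 of the 47 keratins and for 16 of the 26 tested. The 250 bases before the start are shown for Krt4, which was higher at 3d, and for the neighbours Krt8 and Krt18, which varied together and were lower at 3d. Capitals mark the letters TATAA on either strand, a core promoter motif, and TGANTCA, the motif of AP-1 factors, which reads the same on both strands. They come from chr7:134930714-134930963 on the minus strand for Krt4, chr7:135010340-135010589 on the minus strand for Krt8 and chr7:135035918-135036167 on the plus strand for Krt18, each written 5′ to 3′ along the gene.
Krt4: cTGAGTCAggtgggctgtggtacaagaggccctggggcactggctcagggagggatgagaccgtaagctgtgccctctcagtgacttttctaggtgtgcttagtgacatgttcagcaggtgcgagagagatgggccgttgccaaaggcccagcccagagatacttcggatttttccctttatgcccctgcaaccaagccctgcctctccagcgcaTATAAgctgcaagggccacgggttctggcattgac
Krt8: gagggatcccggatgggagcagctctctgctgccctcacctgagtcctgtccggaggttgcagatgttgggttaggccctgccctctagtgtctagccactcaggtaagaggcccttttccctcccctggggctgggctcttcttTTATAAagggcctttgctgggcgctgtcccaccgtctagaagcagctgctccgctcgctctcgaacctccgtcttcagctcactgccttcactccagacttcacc
Krt18: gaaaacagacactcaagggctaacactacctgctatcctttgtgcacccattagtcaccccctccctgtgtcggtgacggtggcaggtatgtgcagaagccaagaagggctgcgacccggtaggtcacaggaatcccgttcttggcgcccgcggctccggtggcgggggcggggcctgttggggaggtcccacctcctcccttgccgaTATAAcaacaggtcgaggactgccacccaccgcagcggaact
TATAA began 35 bases before the start in Krt4 and 42 bases before it in Krt18. In Krt8 the 2 strands' matches overlapped, at 105 and 104 bases before the start. TATAA was present in 27 of the 34 keratin windows and in 24.0% of the 33469 windows of the table. TGANTCA was present in 1 of the 34, that of Krt4, and in 6.34% of all windows. CACCC or its reverse complement, the letters bound by Klf factors, was present in 21 of the 34 and in 49.2% of all windows. These are matches of letters and were not tested as binding sites.

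By 3′ read count, which depends on how well the 3′ end of each gene is annotated, Krt15 was far the highest keratin, with a mean of 55164 normalized counts over the 24 samples. It made up 67.3% ± 10.5 (SD, n = 24) of the summed keratin count. Krt7 followed with 6571, Krt5 with 5518, Krt8 with 3788, Krt17 with 2900 and Krt1 with 2507. Another 8 keratins had means of 100 to 1000 and 12 had means of 2 to 100. Only 12 of the 47 were above 0 in all 24 samples. Basal, simple, wound-induced and most epidermal keratins were thus read in these urethras, while 11 of the 13 hair shaft keratins had a mean under 2.

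**Figure D1:**
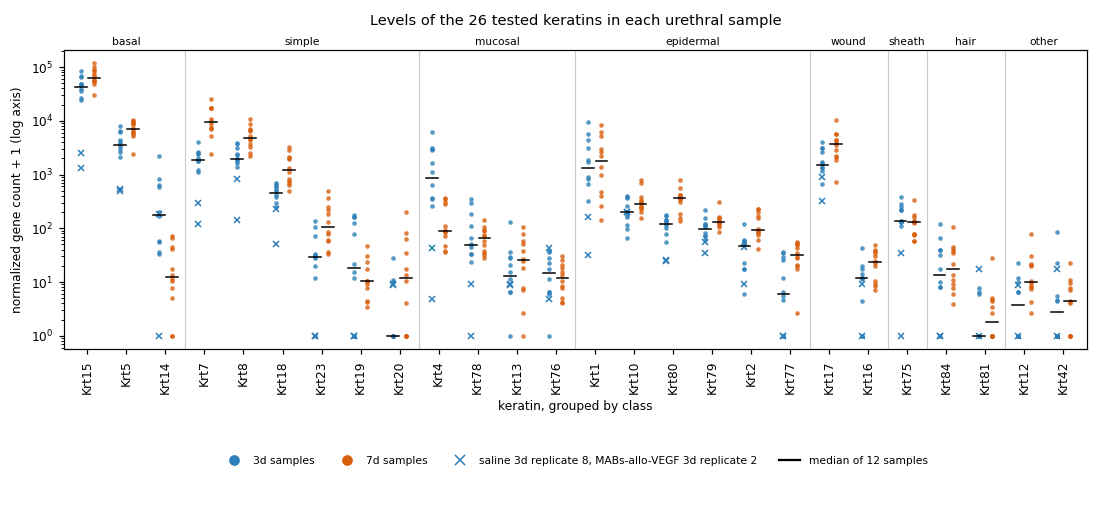
Normalized gene count + 1 on a log axis of the 26 tested keratins (x axis, grouped by class), with 1 point per sample, 12 samples at 3d and 12 at 7d, and a bar at the median. Krt15 lies highest, the simple keratins Krt7, Krt8 and Krt18 have higher medians at 7d, Krt4 and Krt14 have higher medians at 3d, and the crosses mark the 2 samples low in epithelium markers.

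The basal keratins Krt5 and Krt15 were low in the 2 samples low in epithelium markers. Krt15, a type I keratin of basal cells, was 38923, 1329, 49122 and 46096 in saline 3d, 84144, 26041, 36456 and 24824 in MABs-allo 3d and 66378, 2467, 66912 and 47901 in MABs-allo-VEGF 3d. At 7d it was 58404, 55002, 47537 and 55761 in saline, 85277, 87767, 73977 and 30096 in MABs-allo and 68318, 99224, 54808 and 117163 in MABs-allo-VEGF. The values of 1329 and 2467 are those of these 2 samples, and the other 22 ranged over less than 5-fold.

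Krt5, the type II partner of Krt14 and Krt15, was 4380, 541, 3452 and 3660 in saline 3d, 8073, 3031, 4071 and 2164 in MABs-allo 3d and 6218, 483, 6589 and 2636 in MABs-allo-VEGF 3d. Its 7d values were 5307, 9860, 5955 and 7342 in saline, 6096, 10434, 8781 and 2457 in MABs-allo and 6820, 8845, 5580 and 9649 in MABs-allo-VEGF. Krt5 was low in the same 2 samples as Krt15. Over the 24 samples the SD of the log2 level was 1.51 for Krt15 and 1.16 for Krt5, and that of their log2 ratio was 0.58. Without the 2 low samples these SDs were 0.60, 0.69 and 0.36.

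Krt14, the other type I partner of Krt5, did not follow it. It was 203, 0, 53.6 and 35.2 in saline 3d, 2201, 646, 831 and 32.5 in MABs-allo 3d and 168, 183, 590 and 57.9 in MABs-allo-VEGF 3d. By 7d it measured 10.1, 0, 6.70 and 0 in saline, 43.4, 66.2, 16.7 and 4.15 in MABs-allo and 39.9, 71.3, 12.4 and 9.46 in MABs-allo-VEGF. The highest levels were those of 3 MABs-allo 3d samples and 1 MABs-allo-VEGF 3d sample, and the saline 7d samples had at most 3 reads each. The SD of its log2 level was 3.03, the largest among the basal keratins, and the SD of its log2 ratio to Krt5 was 3.20. In MABs-allo-VEGF 3d replicate 2, where Krt5 was at its lowest and Krt15 next to it, Krt14 was 183.

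Krt7, a type II keratin of simple epithelia and urothelium, differed most clearly between days. At 3d it was 1880, 118, 1769 and 1995 in saline, 2386, 1751, 2483 and 1193 in MABs-allo and 3996, 292, 2608 and 1109 in MABs-allo-VEGF. At 7d it was 5260, 17542, 10121 and 16968 in saline, 17371, 10695, 25367 and 7462 in MABs-allo and 7215, 8600, 2380 and 7134 in MABs-allo-VEGF. In saline and in MABs-allo the 2 days did not overlap, while in MABs-allo-VEGF the 7d replicate 11, at 2380, lay below 2 of the 3d samples.

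Krt8 and Krt18, the partner pair of simple epithelia, were also low at 3d. Krt8 was 2383, 831, 1983 and 1971 in saline 3d, 3933, 1800, 2280 and 1649 in MABs-allo 3d and 3736, 142, 3153 and 1385 in MABs-allo-VEGF 3d. Its 7d values were 2236, 8725, 6768 and 7059 in saline, 6598, 4417, 10815 and 2482 in MABs-allo and 3287, 5112, 3631 and 4543 in MABs-allo-VEGF. The days overlapped in each treatment for Krt8.

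Krt18 was 499, 223, 661 and 507 in saline 3d, 604, 290, 249 and 385 in MABs-allo 3d and 687, 50.0, 575 and 410 in MABs-allo-VEGF 3d. By 7d it measured 494, 2897, 2113 and 2060 in saline, 1914, 1334, 3230 and 685 in MABs-allo and 631, 1110, 748 and 835 in MABs-allo-VEGF. Only in MABs-allo did the days not overlap. Krt8 and Krt18 kept the closest ratio of the pairs examined over all samples, with an SD of 0.42 on the log2 scale over 24 samples, against SDs of 1.29 and 1.33 for their levels. Without the 2 low samples the SD of the ratio was again 0.42, those of the levels were 0.83 and 1.04, and Krt15 to Krt5, at 0.36, was then the closest.

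Of the other simple keratins, Krt19, the shortest keratin, was 163, 164, 175 and 0 in MABs-allo 3d and at most 126 elsewhere. Krt20, a keratin of the superficial umbrella cells of urothelium, was above 0 in 13 samples and reached 79.7 and 201 in saline 7d replicates 2 and 5. It was at 0 in all 4 MABs-allo 3d samples. Krt23, a type I keratin, was 31.0, 0, 10.7 and 28.2 in saline 3d, 135, 71.1, 18.5 and 27.1 in MABs-allo 3d and 32.4, 0, 106 and 0 in MABs-allo-VEGF 3d. Its 7d values were 216, 34.8, 56.9 and 59.7 in saline, 248, 493, 31.7 and 78.9 in MABs-allo and 181, 362, 127 and 85.1 in MABs-allo-VEGF, so most 7d samples lay above most 3d samples.

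Krt4, the type II keratin of mucosal upper layers, had the opposite order of days. It was 1639, 3.92, 365 and 348 in saline 3d, 6120, 2828, 3176 and 635 in MABs-allo 3d and 1103, 41.7, 3007 and 263 in MABs-allo-VEGF 3d. At 7d it was 112, 37.3, 70.3 and 34.6 in saline, 347, 281, 93.4 and 45.7 in MABs-allo and 308, 371, 83.8 and 85.1 in MABs-allo-VEGF. Its 2 low values at 3d are those of the 2 samples low in epithelium markers, and the MABs-allo samples of the 2 days did not overlap. Krt13, its type I partner, stayed between 0 and 129 and did not move with it, and the SD of the log2 ratio of Krt4 to Krt13 was 2.85.

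Among the epidermal keratins, Krt1 ranged from 31.4 to 9386 and its partner Krt10 from 65.6 to 777. Krt1 was 5242, 2593, 6188 and 8373 in MABs-allo-VEGF 7d and 2199, 473, 1403 and 255 in saline 7d, and these groups did not overlap. Krt10 was 163, 65.6, 388 and 114 in MABs-allo 3d and 310, 334, 244 and 706 in MABs-allo 7d, which overlap. Krt1 and Krt10 did not vary as a pair, with an SD of 2.41 for their log2 ratio.

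Krt2, a keratin of the outermost living epidermal layers, was 48.2, 43.1, 118 and 59.8 in saline 3d, 21.3, 54.7, 55.4 and 16.3 in MABs-allo 3d and 16.2, 8.33, 5.04 and 57.9 in MABs-allo-VEGF 3d. Its 7d values were 87.9, 59.7, 228 and 84.9 in saline, 96.0, 199, 81.7 and 166 in MABs-allo and 225, 157, 40.3 and 72.5 in MABs-allo-VEGF. The 3 lowest of these values belonged to MABs-allo-VEGF 3d replicates 1, 2 and 3, with MABs-allo 3d replicate 4 next above them.

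Krt80, a type II keratin of differentiating epithelia, was 176, 23.5, 143 and 141 in saline 3d, 135, 76.6, 55.4 and 125 in MABs-allo 3d and 114, 25.0, 172 and 102 in MABs-allo-VEGF 3d. By 7d it measured 352, 182, 422 and 371 in saline, 396, 795, 354 and 133 in MABs-allo and 305, 553, 152 and 413 in MABs-allo-VEGF. The 3d values all lay at or below 176 and 10 of the 12 7d values lay above it. Krt77 was low in every sample, from 0 to 35.3 at 3d and from 1.67 to 54.4 at 7d.

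Krt17, a wound-induced type I keratin, was 1746, 908, 3173 and 668 in MABs-allo-VEGF 3d and 4306, 5776, 3867 and 5570 in MABs-allo-VEGF 7d, which did not overlap. In the other groups it ranged from 325 to 10215. Krt16, the other wound-induced type I keratin, had at most 17 reads in a sample. It was 3.44, 0, 10.7 and 10.6 in saline 3d, 42.6, 16.4, 18.5 and 10.8 in MABs-allo 3d, 0, 8.33, 0 and 13.4 in MABs-allo-VEGF 3d and 36.3, 48.5, 6.21 and 37.8 in MABs-allo-VEGF 7d.

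Hair keratins were scarce. Krt75, of the companion layer around the hair, had a mean of 149 and was above 0 in 23 samples, the exception being saline 3d replicate 8. It was the 1 of 8 inner root sheath and companion layer keratins that could be tested. Krt84, found in hard keratin structures, was the highest of the 13 hair shaft keratins, from 0 to 121. Of the defining genes of the hair follicle list, Krt85 was at 0 in all 24 samples, Krt31 had 1 read in 1 sample and Tchh reached 49.2. Krt12, known from the cornea, had at most 25 reads in a sample, with 0 to 21.3 at 3d and 1.67 to 78.6 at 7d. The 5 tested keratins not given singly, Krt76, Krt78, Krt79, Krt42 and Krt81, had means of 3.17 to 121.9.

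**Figure D2:**
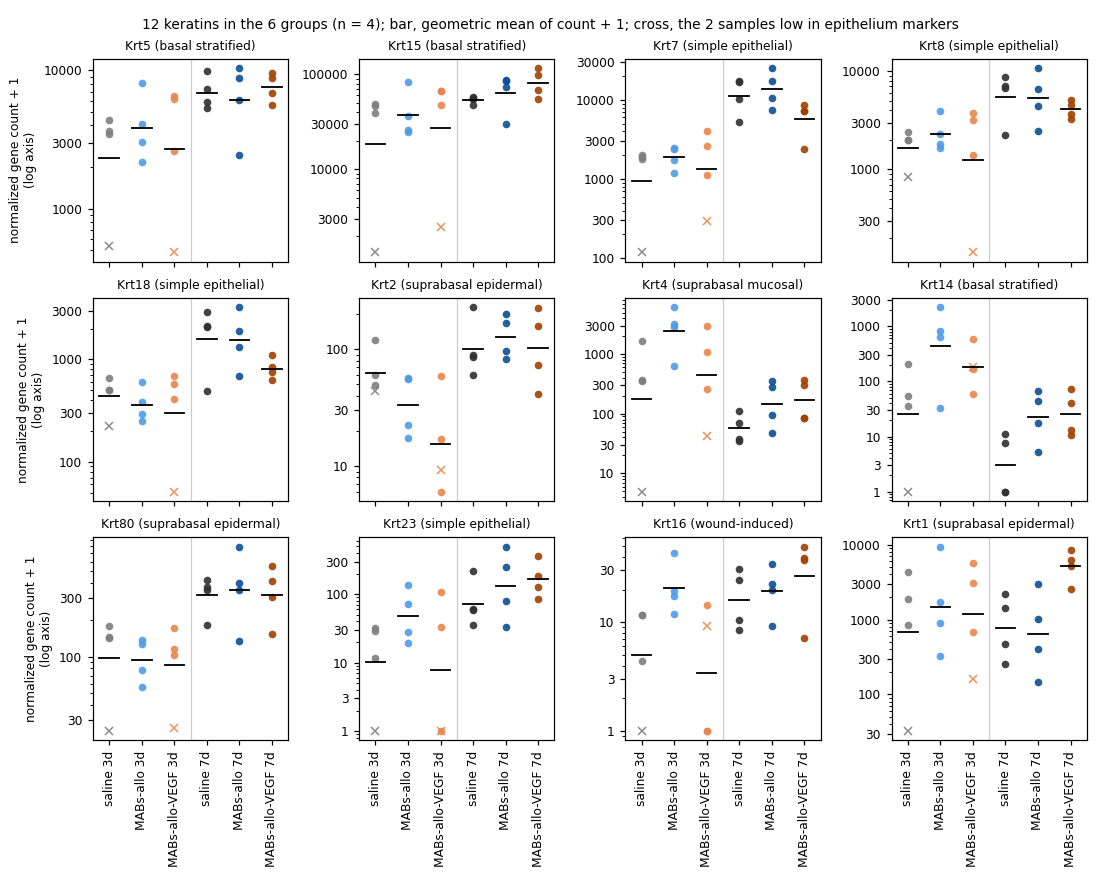
Normalized gene count + 1 on a log axis of 12 keratins in the 6 groups (n = 4 each), with 1 point per sample and a bar at the geometric mean. Krt7, Krt18 and Krt80 lie higher at 7d, Krt4 and Krt14 lie highest in MABs-allo 3d, and the crosses, the 2 samples low in epithelium markers, lie lowest for Krt5, Krt15 and Krt7.

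The levels were compared with limma on log2(normalized gene count + 1), and a keratin was called where the adjusted p was under 0.05 and the log2 fold change was beyond 1. The labels do not say outright that the samples came from separate animals. The titles give each sample of a group its own number, and the study's methods give urethral tissue with n = 4 per group. The p-values measure only the spread between these samples. Over the 6 groups, 7 of the 26 tested keratins differed at an adjusted p under 0.05, against 32.2% of all 16287 genes tested, a share close to that of the keratins. They were Krt7, Krt14, Krt2, Krt18, Krt80, Krt23 and Krt4, with limma adjusted p of 0.000627 for Krt7 and 0.00293 for Krt14. With the 2 samples low in epithelium markers left out the count was 10. The share of all genes called in fits with samples left out is not given, here or below. Counts from such fits therefore cannot be set against the shares of the fit with all samples.

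At 3d, MABs-allo differed from saline in 1 keratin. Krt14 was higher in MABs-allo, with a log2 fold change of 4.15 ± 1.37 (SE, limma, adjusted p = 0.0432). This was 1 of 26 tested keratins, against 12.3% of all genes called in this comparison and 9.4% called higher. Krt4 had a log2 fold change of 3.76 ± 1.30 (SE, limma adjusted p = 0.0515) and did not pass. For these 2 genes the values of the 2 groups overlapped. Krt16 was the 1 keratin whose groups did not overlap, as did 14.7% of all genes, and its adjusted p by limma was 0.14. The gap lay between 10.8 (2 reads) in MABs-allo replicate 4 and 10.7 (3 reads) in saline replicate 9. The order of these 2 samples thus came from the size factors. Of the 26, 4 had an unadjusted p under 0.05, against 31.4% of all genes. The median log2 fold change was 0.99 over the 26 keratins and 0.07 over all genes tested. That median includes saline 3d replicate 8, whose summed keratin count was 3759, against 57769 to 61844 in replicates 6, 9 and 10. The median of the keratins without it is not given here. The Krt14 call was lost without saline 3d replicate 8 (log2 fold change 2.60, limma adjusted p = 0.211), which had no Krt14 read. It was also lost without saline 3d replicate 9 (limma adjusted p = 0.0613) or 10 (0.062) and without MABs-allo 3d replicate 1 (0.145), 2 (0.0802) or 3 (0.108). Without MABs-allo 3d replicate 4 there were 4 keratins called, Krt14, Krt19, Krt4 and Krt78, and without saline 3d replicate 6 there were 3, Krt14, Krt4 and Krt78. Without the 2 samples low in epithelium markers no keratin was called in this comparison. In the same comparison 3 of 5 macrophage markers were lower and 2 of 5 striated muscle markers higher in MABs-allo, and Tchh of the hair follicle list was higher. When the 2 low samples were left out, 1 macrophage marker and 0 striated muscle markers were called. The part of these cell types in the result was not tested.

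MABs-allo-VEGF against saline at 3d gave 0 called keratins with limma, with edgeR and with DESeq2, while 0.0307% of all genes were called by limma. Krt2, Krt20 and Krt14 had an unadjusted p under 0.05, as did 17.9% of all genes. The log2 fold change of Krt2 was -2.03 ± 0.67 (SE, limma adjusted p = 0.13), and without MABs-allo-VEGF 3d replicate 4 it was called at -2.67 (limma adjusted p = 0.0155). That of Krt14 was 2.85 ± 1.37 (SE, limma adjusted p = 0.274), with a 95% interval of 0.02 to 5.67. Krt20 did not overlap between these groups, as did 4% of all genes, but rested on at most 5 reads per sample at 3d. The gap lay between 8.33 (1 read) in MABs-allo-VEGF replicate 2 and 7.84 (2 reads) in saline replicate 8. The order of these samples came from the size factors. With the 2 samples low in epithelium markers left out no keratin was called.

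Between the 2 cell treatments at 3d, 0 keratins were called by limma, edgeR or DESeq2, against 0.00614% of all genes by limma, and Krt16 and Krt20 had an unadjusted p under 0.05, as did 6.13% of all genes. Krt20 did not overlap between these groups, as did 1.63% of all genes. It had 5, 1, 2 and 2 reads in the MABs-allo-VEGF samples and 0 in each MABs-allo sample. The log2 fold change of Krt4, MABs-allo-VEGF against MABs-allo, was -2.47 with a 95% interval of -5.15 to 0.21, and that of Krt14 was -1.30 with a 95% interval of -4.13 to 1.53.

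At 7d no keratin was called between treatments in any of the 3 comparisons by limma, edgeR or DESeq2, as 0% of all genes were by limma. Those with an unadjusted p under 0.05 were Krt14 for MABs-allo against saline, Krt14 and Krt1 for MABs-allo-VEGF against saline and Krt1 for MABs-allo-VEGF against MABs-allo. Of all genes, 6.23%, 6.34% and 2.78% had an unadjusted p under 0.05 in these 3 comparisons. Krt1 was higher in every MABs-allo-VEGF sample than in every saline sample, with a log2 fold change of 2.72 ± 1.27 (SE, limma adjusted p = 0.771) and a 95% interval of 0.10 to 5.34. Krt75 did not overlap between these 2 groups either, with a limma adjusted p of 0.873, and 6.04% of all genes did not overlap. In neither interaction of treatment with day was a keratin called by limma, edgeR or DESeq2, as 0% of all genes were by limma. Of the 26 keratins, 0 had an unadjusted p under 0.05 in the interaction of MABs-allo, against 13.6% of all genes, and 2, Krt20 and Krt2, in that of MABs-allo-VEGF, against 8.23%.

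The clearest differences lay between days. In saline, Krt7 was lower at 3d than at 7d by a log2 fold change of -3.57 ± 0.76 (SE, limma adjusted p = 0.016). It was the 1 keratin called, against 3.19% of all genes called and 0.602% called lower. Krt7, Krt5, Krt80 and Krt23 did not overlap between the days, each lower at 3d, as did 4.92% of all genes. The call of Krt7 was lost without saline 3d replicate 6 (-3.91, limma adjusted p = 0.0508) or saline 7d replicate 5 (-3.37, 0.0688). Without saline 3d replicate 8 there were 4 called, Krt7, Krt14, Krt4 and Krt75, and without saline 7d replicate 1 there were 3, Krt7, Krt20 and Krt18. Without the 2 samples low in epithelium markers there were 5, with Krt14, Krt4 and Krt75 higher at 3d and Krt7 (-2.58, limma adjusted p = 0.00126) and Krt18 lower. The direction of Krt75 depended on saline 3d replicate 8, where it had no read: its log2 fold change was -0.19 with that sample and 1.77 without it.

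In MABs-allo, 7 keratins were called between days, against 23% of all genes, again a share close to that of all genes. Krt14 (log2 fold change 4.29 ± 1.37, SE, limma adjusted p = 0.0202) and Krt4 (4.08 ± 1.30, limma adjusted p = 0.0198) were higher at 3d, as were 17% of all genes. Krt7 (-2.87 ± 0.76, limma adjusted p = 0.00666), Krt18 (-2.10 ± 0.64, limma adjusted p = 0.0152), Krt80, Krt2 and Krt10 were lower at 3d, as were 6.05% of all genes. Krt7, Krt18, Krt2 and Krt4 did not overlap between the days, and 27% of all genes did not. The call of Krt7 was kept without each of the 8 samples in turn. Krt18 lost it without MABs-allo 7d replicate 11 (limma adjusted p = 0.0605), and Krt4 without MABs-allo 3d replicate 1 (0.0638) or 7d replicate 13 (0.0688). Krt14 lost it without MABs-allo 3d replicate 1 (0.0806) or 3 (0.0553) or 7d replicate 13 (0.0759). Krt2 lost it without 3d replicate 1 (0.0806) or 4 (0.0859) or 7d replicate 9 (0.0798) or 13 (0.0722). Krt80 lost it without 3d replicate 2 (0.0526) or 3 (0.0762) or 7d replicate 7.2 (0.0529) or 9 (0.0899). Krt10 lost it without 3d replicate 1 (0.0553), 2 (0.144) or 4 (0.0802) or 7d replicate 9 (0.0517) or 13 (0.136). Without MABs-allo 3d replicate 1, or without MABs-allo 7d replicate 13, 3 keratins were called, Krt7, Krt80 and Krt18. With the 2 samples low in epithelium markers left out, neither of which is in these groups but which enter the estimate of the spread, the 7 were called together with Krt8.

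In MABs-allo-VEGF, 5 keratins were called between days, all lower at 3d, against 15.3% of all genes called and 2.24% called lower. These were Krt2 (-2.72 ± 0.67, SE, limma adjusted p = 0.00597), Krt23 (-4.41 ± 1.29, limma adjusted p = 0.0182), Krt16, Krt80 and Krt17. Krt16 had 3 reads or fewer in each of the 3d samples, so its fitted fold change depends on the count of 1 that was added. Krt17 did not overlap between the days, as did 21.8% of all genes. Krt2 kept its call without each of the 8 samples in turn. Krt23 lost it without MABs-allo-VEGF 3d replicate 2 (limma adjusted p = 0.0848) or 4 (0.0577) or 7d replicate 7 (0.0563). Krt80 lost it without 3d replicate 2 (0.155) or 7d replicate 6 (0.0589), 7 (0.105) or 12 (0.0829). Krt16 lost it without 3d replicate 1 (0.0997) or 3 (0.11) or 7d replicate 6 (0.067), 7 (0.0829) or 12 (0.0722). Krt17 kept it without 3d replicate 3 and lost it without each of the other 7 samples (0.0597 to 0.126). Without 7d replicate 7 the count was 1, Krt2, and without 3d replicate 2, 7d replicate 6 or 7d replicate 12 it was 2. Without the 2 samples low in epithelium markers 4 were called, with Krt2, Krt23 and Krt16 lower and Krt4 higher at 3d. With the epithelium marker level as a covariate, an alternative added after seeing the data, 3 were called, and the share of all genes called there is not given. Krt2 stayed lower at 3d (-2.54, limma adjusted p = 0.0183), while Krt14 (4.30, limma adjusted p = 0.0299) and Krt4 (3.97, limma adjusted p = 0.00266) were called higher. Krt16 (limma adjusted p = 0.0504), Krt23 (0.152), Krt17 (0.295) and Krt80 (0.302) did not pass there. In the fit without the covariate Krt7 had a log2 fold change of -2.07 ± 0.76 (SE, limma adjusted p = 0.0579).

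**Figure D3:**
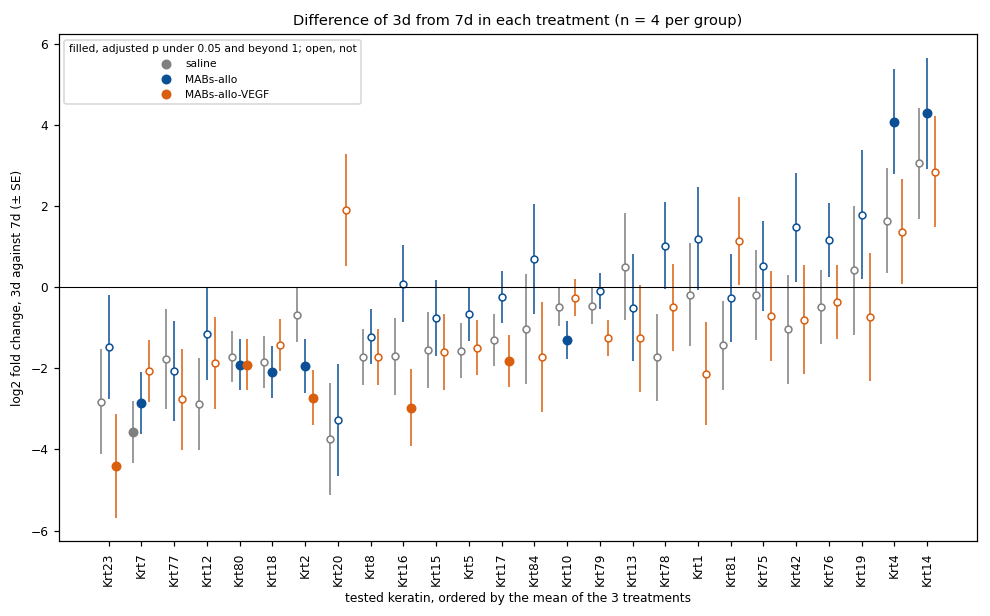
Log2 fold change of 3d against 7d (y axis, ± SE) of the 26 tested keratins in saline, MABs-allo and MABs-allo-VEGF (n = 4 per group), with filled points for called keratins. Krt7, Krt18 and Krt80 lie below 0 in all 3 treatments and Krt14 and Krt4 above 0 in all 3.

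The mean of the 3 treatments at 3d against that at 7d was compared in the same fit, a comparison chosen after seeing the data. It called 13 of the 26 keratins, against 22.6% of all genes. Lower at 3d were 11, against 4.51% of all genes, and higher were 2, against 18.1%. The 11 were Krt7 (-2.84 ± 0.44, SE, limma adjusted p = 2.06e-05), Krt80 (-1.85 ± 0.36), Krt18 (-1.79 ± 0.37), Krt2 (-1.79 ± 0.39), Krt8 (-1.56 ± 0.40), Krt5 (-1.24 ± 0.39), Krt17 (-1.13 ± 0.37), Krt23, Krt77, Krt12 and Krt16. At 3d Krt12 had at most 3 reads in a sample and Krt16 at most 6. Most 3d libraries were also shallower, so the fitted changes of these low keratins depend on depth and on the added count. The 2 higher at 3d were Krt14 (3.39 ± 0.79, limma adjusted p = 0.00135) and Krt4 (2.36 ± 0.75, limma adjusted p = 0.0135). Of the simple keratins 4 of 6 were called lower, of the epidermal 3 of 6, of the wound-induced 2 of 2 and of the basal 1 of 3. The median log2 fold change was -0.91 over the 26 keratins and 0.03 over all genes. With the 2 samples low in epithelium markers left out 10 were called, and Krt5 (-0.73), Krt17 (-0.87) and Krt77 (-1.58) no longer passed. Leaving out each of the 24 samples in turn gave 12 to 14 called, with Krt16 lost without MABs-allo-VEGF 3d replicate 1 or 3, Krt17 without saline 3d replicate 8 or MABs-allo 7d replicate 9 and Krt5 without MABs-allo-VEGF 3d replicate 2. Krt15, not called with all samples (-1.30, limma adjusted p = 0.055), was called lower at 3d without any 1 of 8 samples (limma adjusted p = 0.0368 to 0.0472). These were saline 3d replicates 6, 9 and 10, MABs-allo 3d replicate 1, MABs-allo-VEGF 3d replicates 1, 3 and 4 and MABs-allo 7d replicate 13. Krt20 was called lower without saline 3d replicate 8 (limma adjusted p = 0.0493), saline 7d replicate 1 (0.0147) or MABs-allo 7d replicate 9 (0.0349).

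Other markers moved between the days too. In the comparison of the mean of the 3 treatments, the epithelium markers Cldn4 (limma adjusted p = 0.00133) and Cdh1 (log2 fold change -1.45 ± 0.39, SE) were lower at 3d, 2 of the 5 listed. Of the 5 urothelium markers 4 were lower, among them the uroplakin Upk2 (-3.65 ± 0.65), and Upk3b, also lower, was at 0 in 19 samples. All 5 adipocyte markers, 3 of 5 smooth muscle markers and 1 of 5 macrophage markers were lower at 3d. Without the 2 low samples the counts were 1 of 5 for epithelium (Cldn4), 2 of 5 for urothelium, 5 of 5 for adipocytes, 1 of 5 for smooth muscle and 1 of 5 for macrophages. The treatments differed here. In that fit 5 of 5 adipocyte markers were lower at 3d in saline and in MABs-allo, and 1 and 2 of 5 urothelium markers. In MABs-allo-VEGF 0 of either list were called. Upk2 had a mean over its 4 samples of 121 at 3d and 193 at 7d in MABs-allo-VEGF. The summed epithelium markers ranged from 1442 to 40116 at 3d and from 32231 to 60513 at 7d, and the summed urothelium markers from 231 to 21612 and from 7479 to 45610. Their part in the differences of the keratins was not tested.

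With the epithelium marker level added to the same fit, an alternative chosen after seeing the data, 5 keratins were called between the mean days. The share of all genes called in this fit is not given here, so the count cannot be set against it. Krt14 (4.37) and Krt4 (4.11, limma adjusted p = 2.51e-06) were higher at 3d, and Krt7 (-1.80, limma adjusted p = 7.17e-05), Krt2 (-1.67) and Krt80 (-1.03) were lower. Krt5 was -0.21 and Krt15 0.15 in this fit, and neither passed. The markers and the keratins come from the same libraries. Of the markers, Cldn4 and Cdh1 were themselves called lower at 3d, so the adjustment is not independent of the day. The lowest marker levels, 8.66 and 7.18, are those of the 2 low samples, both at 3d. A covariate fit without these samples is not given, which also limits the covariate results above.

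**Figure D4:**
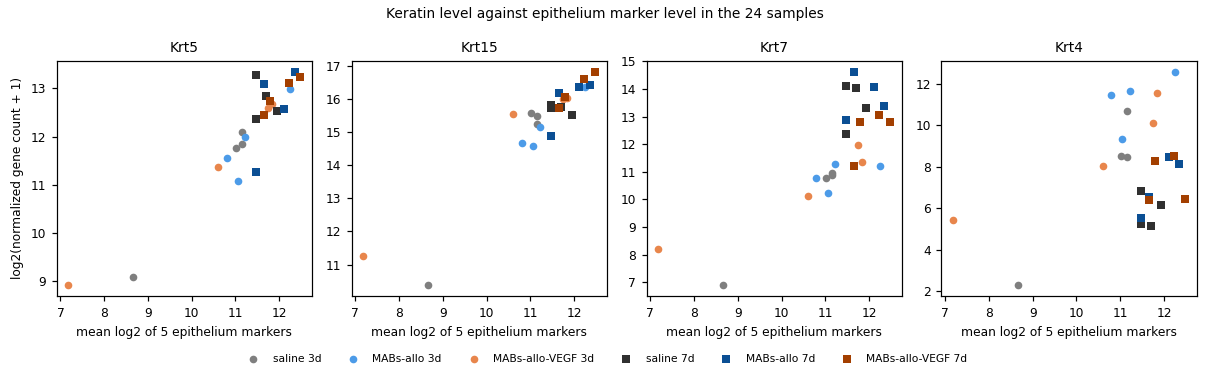
Log2(normalized gene count + 1) of Krt5, Krt15, Krt7 and Krt4 (y axes) against the mean log2 level of the 5 epithelium markers (x axis) in the 24 samples, circles for 3d and squares for 7d. Krt5 and Krt15 rise along the x axis, with 2 samples at 7.18 and 8.66 far from the rest, while Krt7 lies higher and Krt4 lower at 7d at a similar marker level.

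Taken relative to the epithelium markers, that is as the log2 level minus their mean log2 level, 16 of the 26 keratins had a smaller SD over the 24 samples. The SD of Krt5 went from 1.16 to 0.44 and that of Krt15 from 1.51 to 0.60. Over the 22 samples without the 2 low ones, 17 of the 26 had a smaller SD, and the change was from 0.69 to 0.40 for Krt5 and from 0.60 to 0.35 for Krt15. The mean relative level at 3d minus that at 7d was -0.10 for Krt5, -0.16 for Krt15, -0.42 for Krt8, -0.65 for Krt18 and -1.70 for Krt7. It was 3.50 for Krt4 and 4.53 for Krt14. Over the 22 samples it was 4.61 for Krt14, -1.69 for Krt7, -0.16 for Krt5 and 0.05 for Krt15. All of the 26 keratins overlapped between the 12 samples of 3d and the 12 of 7d on this scale. They also overlapped as plain levels, where only 0.663% of all genes did not.

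Ratios between keratins of the same sample also differed between days. The mean log2 ratio of Krt4 to Krt5 was -3.71 in saline, -0.66 in MABs-allo and -2.61 in MABs-allo-VEGF at 3d, and -6.91, -5.40 and -5.47 at 7d. That of Krt14 to Krt5 was -6.54, -3.10 and -3.89 at 3d and -11.15, -8.06 and -8.22 at 7d. That of Krt7 to Krt18 was 1.10, 2.38 and 2.17 at 3d and 2.83, 3.15 and 2.81 at 7d. Without the 2 low samples the 3d means of saline and MABs-allo-VEGF were -2.68 and -2.32 for Krt4 to Krt5, -5.69 and -4.72 for Krt14 to Krt5 and 1.77 and 2.05 for Krt7 to Krt18. The group means of Krt15 to Krt5 stayed between 2.97 and 3.43, or up to 3.65 without the 2 low samples, and those of Krt8 to Krt18 between 1.78 and 2.65. Krt4 and Krt14, which share no filament pair, had an SD of 1.37 for their log2 ratio, below those of their levels, 2.52 and 3.03. Without the 2 low samples these were 0.94, 2.22 and 2.91.

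**Figure D5:**
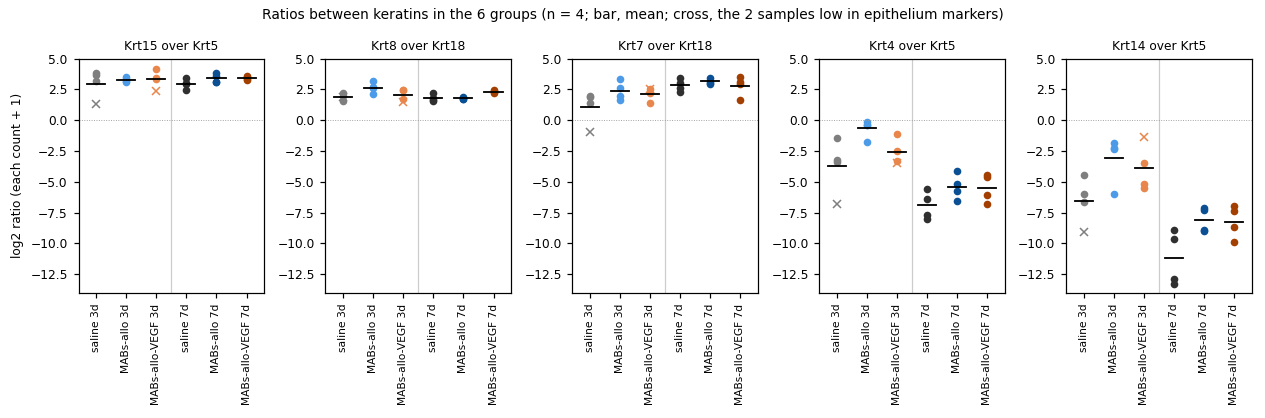
Log2 ratio (y axis, each count + 1) of 5 pairs of keratins in the 6 groups, with 1 point per sample and a bar at the group mean (n = 4). Krt15 over Krt5 and Krt8 over Krt18 stay within about 3 units, while Krt4 over Krt5 and Krt14 over Krt5 span from near 0 to -8.01 and from -1.39 to -13.27 and lie higher at 3d.

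Genes that hold keratin filaments in place were compared in the same fit. Of 13 tested desmosome and linker genes, which tie keratins to cell junctions, 0 were called in MABs-allo against saline at 3d, against 12.3% of all genes. Their median log2 fold change there was 0.89, and 0.38 without the 2 low samples. Over the mean of the treatments 3 (Pkp1, Dsg2 and Dsc2) were lower at 3d, against 4.51% of all genes, and 0 without the 2 low samples. Of 7 hemidesmosome and basement membrane genes 2 were higher in MABs-allo than in saline at 3d, against 9.4% of all genes. These were the keratin-binding linkers Dst (1.30 ± 0.27, SE, limma adjusted p = 0.00718) and Plec (1.29 ± 0.26, limma adjusted p = 0.00668), which stayed called without the 2 low samples (limma adjusted p = 0.0348 and 0.032). Both are also made in muscle, and 2 of 5 striated muscle markers, Mylpf and Tnnt3, were called higher in the same comparison, though not without the 2 low samples. Of 10 tested cornified envelope genes 0 were called in any single treatment, and Sprr1a (-2.19 ± 0.57) and Calml3 (-1.30 ± 0.43) were lower at 3d over the mean, against 4.51% of all genes. Sprr1a kept its call without the 2 low samples (-1.41) and Calml3 (-0.65) did not, and Sprr1a was then also called in MABs-allo. Of 14 epithelial transcription factors, Grhl1 (4.46 ± 0.91, limma adjusted p = 0.00668) and Ehf (3.25, limma adjusted p = 0.0398) were higher in MABs-allo than in saline at 3d, against 9.4% of all genes, and stayed called without the 2 low samples at 4.46 and 2.29. Elf3 and Ovol1 were lower at 3d in MABs-allo-VEGF, against 2.24% of all genes, and Ovol1 lost its call without the 2 low samples (limma adjusted p = 0.135). In that fit Ehf (3.02, limma adjusted p = 0.00169) and Grhl1 (3.39, limma adjusted p = 0.00999) gained calls as higher at 3d in MABs-allo-VEGF. Foxa1 (4.90 ± 1.13) and Grhl1 (3.93) were higher at 3d in MABs-allo, against 17% of all genes. Without the 2 low samples Ehf (2.75) and Grhl2 (1.37) were also called higher there. Over the mean of the treatments Grhl1 (2.11) was higher, against 18.1% of all genes. Elf3 (-1.98), Grhl3 (-1.22) and Ovol1 (-1.18) were lower there, against 4.51%, and the last 2 lost their calls without the 2 low samples. Ehf (2.30, limma adjusted p = 1.37e-05) and Foxa1 (1.71, limma adjusted p = 0.0394) then gained calls as higher at 3d. Of the 14 factors, 3 were thus called higher and 1 lower in that fit.

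The 2 recovered urethras, both MABs-allo-VEGF at 7d, were compared with the 10 other urethras of 7d. No keratin was called by limma, edgeR or DESeq2 among the 28 tested there, as 0% of all genes were by limma, and Krt4, Krt10 and Krt42 had an unadjusted p under 0.05, against 4.89% of all genes. Krt4 was 308 and 371 in the recovered urethras and 34.6 to 347, with a median of 84.5, in the others (log2 fold change 1.91 ± 0.71, SE, limma adjusted p = 0.933). Krt10 was 200 and 154 against 230 to 777, and Krt77 was 54.4 and 51.3 against 1.67 to 50.7, so these 2 did not overlap, as did 2.75% of all genes. Both recovered urethras belong to MABs-allo-VEGF, while 8 of the 10 others belong to the other treatments. The other 2 urethras of MABs-allo-VEGF at 7d had 83.8 and 85.1 for Krt4 and 230 and 258 for Krt10. Their Krt77 values were 18.6 and 47.3. Within that treatment these 3 keratins did not overlap, though Krt4 overlapped against all 10 others. In this split 8 of the 26 keratins tested over all samples were higher without overlap, 2 were lower and 16 overlapped. Groups of 2 separate easily, and the share over all genes is not given here. The comparison of 2 with 2 samples was not tested.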

How the data were processed

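RNA of 24 rat urethras was sequenced with QuantSeq 3′ libraries. Per the study's methods and the labels, the authors used fastq-mcf for trimming, HISAT2 and the Rnor6.0 build for alignment and HTSeq for counting. Reads that mapped to several places were discarded, so near-identical keratins may be undercounted. The authors divided the gene counts by DESeq2 size factors, and the deposited values, normalized gene counts, are treated here as a signal. Whole reads were recovered from 100% of the values (relative tolerance 1e-06). No pair of replicates was as close as sampling noise allows (chi-square per degree of freedom 9.00 to 121 over 36 pairs).

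Groups came from the labels. Genes with a mean of at least 2 normalized counts (16287) were put on the scale log2(normalized gene count + 1). They were fitted with limma 3.58.1 (trend option, R 4.3.3) in 1 fit of 6 groups and 24 samples. P-values were adjusted by Benjamini-Hochberg over all genes tested, and a call needed an adjusted p under 0.05 and a log2 fold change beyond 1. Fold changes on this scale understate the change of low genes. The recovered urethras were compared in a fit of the 12 samples of 7d. Alternatives were edgeR 4.0.16 (quasi-likelihood test) and DESeq2 1.42.0 on recovered reads, scaling to the same total, an added count of 5, filters of 10 and none, the groups compared only, a replicate block and leaving out samples. The fits were tested on simulated data.

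Keratins given singly were a chosen set of partner and class keratins, every keratin called in a comparison and the highest of each class, while Krt42, Krt78 and linked genes beyond the 3 largest changes of a comparison were named after their values were seen. The members and lists were chosen with earlier results of these data known. Sequences and chromosomes are from RefSeq, GRCr8, and no coordinate was converted.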

Additional observations from a re-analysis of the deposited data

Results flagged for a closer look

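Of 126 groups of 4 samples (21 keratins in 6 groups), 13 held a sample apart from its group by Dixon's criterion, where chance gives about 1 in 20. Of these, 5 were in replicate 8 of saline 3d, with Krt5 at 541, Krt15 at 1329, Krt7 at 118, Krt80 at 23.5 and Krt20 at 7.84 normalized counts, the last high and the others low. Another was Krt15 at 2467 in MABs-allo-VEGF 3d replicate 2. These are the 2 samples low in epithelium markers. The rate of 1 in 20 holds for independent, normally distributed values. Keratins of a sample can vary together, and for Krt20 the other saline 3d samples were all at 0. The 13 therefore cannot be set directly against that rate.

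The other 7 lay in other samples. Krt15 was 30096 in MABs-allo 7d replicate 13, below the rest of its group, and Krt19 was 0 in MABs-allo 3d replicate 4. Krt20 was 27.0 in MABs-allo-VEGF 3d replicate 1, above its group. In MABs-allo-VEGF 7d replicate 11, Krt7 at 2380, Krt16 at 6.21 and Krt77 at 18.6 were below their group, and Krt77 was 1.67 in MABs-allo 7d replicate 11. The part of library depth or cell content in these values was not tested.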

How the results depend on the processing

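For MABs-allo against saline at 3d (1 keratin called), DESeq2 called 3 and an added count of 5 called 2, while no filter, scaling to the same total, the 2 groups alone, leaving out the 2 samples low in epithelium markers and the epithelium marker level as a covariate each called 0. Leaving out saline 3d replicate 6 with MABs-allo-VEGF 3d replicate 4 called 3 there, 2 for MABs-allo-VEGF against saline at 3d and 0 for saline 3d against 7d. For saline 3d against 7d (1 called), edgeR called 2, DESeq2 6, the 2 groups alone 0, the covariate 2 and leaving out the 2 low samples 5. For MABs-allo-VEGF 3d against 7d (5 called), edgeR called 3 and the covariate 3 (1 lower, 2 higher), and for the mean of the days (13 called) the covariate called 5. Among the 6 groups (7 differing), edgeR and DESeq2 each found 11. Leaving out 1 sample at a time gave 0 to 4 for MABs-allo against saline at 3d, 0 to 1 for MABs-allo-VEGF against saline at 3d, 0 to 4 for saline between days, 3 to 6 for MABs-allo between days and 1 to 5 for MABs-allo-VEGF between days. The cause was not tested, and the shares of all genes called in these fits are not given here.

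Krt75 in saline, 3d against 7d, was -0.19 and turned to 1.51 with edgeR, 1.53 with DESeq2, 0.32 with an added count of 5, 1.77 without the 2 low samples and 0.98 with the covariate, and ranged from -1.10 to 1.77 with 1 sample left out. Krt15 over the mean of the days turned from -1.30 to 0.15 with the covariate. Scaling to the same total moved the median of all genes by -0.257 on the log2 scale for MABs-allo against saline at 3d. With the replicate number as a block, MABs-allo-VEGF against MABs-allo at 3d gave 0 keratins, as without the block. The correlations of the deviations of same-numbered samples were 0.222, 0.151, 0.073 and 0.254, and those of the other 12 pairs were -0.225 to 0.200. As 1 of the 4 was under 0.1 and not every sample correlated best with its own number, the numbers were not taken to pair the samples. Depth limited the keratins under about 10 normalized counts, which rest on a few reads.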
